A study of Mus musculus with 12 samples.

Results

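Levels of 8 mast cell and basophil genes were followed in mouse leukemic cells: *Gata2*, *Mitf*, *Hdc*, *Cpa3*, *Mcpt8*, *Ms4a2*, *Fcer1a* and *Il1rl1*. They were chosen by symbol, and for a symbol with several rows the row with the highest mean over the 12 libraries was used. All 8 had a row among the 25263 symbols measured. Of these, 4 (*Gata2*, *Hdc*, *Mcpt8* and *Mitf*) reached a mean of 1 FPKM (fragments per kilobase of gene model, relative to the sequencing depth) over the 12 libraries, the level required for the main test, and *Cpa3*, *Ms4a2*, *Fcer1a* and *Il1rl1* did not. *Gata2* reached that mean only through the libraries of the floxed cells, so a count over the 4 genes is no support for a difference.

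All cells were leukemic cells from adult bone marrow that carried MA9, the MLL-AF9 fusion protein, a driver of acute myeloid leukemia. They were kept overnight in medium with SCF, GM-CSF, IL-6 and IL-3, spinoculated with a retrovirus and sorted for high GFP. The 4 groups of 3 libraries were WT-GFP (wild type Hoxa cluster, strain C57BL/6, control virus), WT-Cre (the same cells with a Cre recombinase virus), Hoxa-flox (Hoxa cluster flanked by loxP sites, strain C57BL/6J, control virus) and Hoxa-del (the floxed cells with Cre, which deletes the cluster). Genotype and strain differ together between the WT and floxed cells and cannot be told apart, and the sources used here do not say whether libraries of a group came from separate cultures, animals or leukemias. *Hoxa9*, a gene of the targeted cluster, read 152 to 183 FPKM in the 6 WT libraries, 217 to 257 with the floxed cluster and 83.5 to 119 after Cre, so transcript of the cluster was still present in the libraries labelled Hoxa-del.

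Mast cells and basophils are rare cells of the myeloid lineage that carry histamine and proteases in granules and release them when IgE on their surface meets antigen. They bind IgE through the receptor FcεRI, whose α chain is the product of *Fcer1a* and whose β chain is that of *Ms4a2*. The transcription factor Gata2 acts in hematopoietic stem and progenitor cells and in both lineages, and Mitf is a factor of the mast cell lineage that is also made in other cells, macrophages and melanocytes among them. IL-3 and SCF, both present in the medium, are growth factors of these lineages.

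The 6 libraries of the floxed cells fell into 2 sets in an earlier look at the same values. Hoxa-flox 1, Hoxa-flox 2 and Hoxa-del 2 had low *Mki67*, the Ki-67 gene of cycling cells (14.9 to 17.8 FPKM), and Hoxa-flox 3, Hoxa-del 1 and Hoxa-del 3 had high *Mki67* (84.6 to 93.2), against 65.1 to 78.2 in the WT libraries. Across 13169 genes the Pearson correlation of log2(FPKM + 1) was 0.976 to 0.987 between libraries within the low set, 0.951 to 0.977 within the high set and 0.911 to 0.927 between the sets. Each set holds libraries of both viruses, in unequal numbers, and results are given within the sets where they bear on a gene. Low values gave an estimated depth of 3.94 M fragments (WT-Cre 2) to 18.6 M (WT-GFP 3), so 1 fragment of a gene is worth more FPKM in WT-Cre 2 than in any other library.

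GATA factors bind the letters GATA, and Mitf binds E-boxes of the form CATGTG. The 250 bases before each start site in RefSeq (GRCm38.p6) were searched for GATAA, which reads TTATC on the other strand, and for CATGTG, which reads CACATG there. The members had 12 such windows for 8 genes. GATAA was found in 7 of the 12 windows and in 5 of the 8 genes (*Cpa3*, *Ms4a2*, *Fcer1a*, *Il1rl1* and *Mitf*), with 10 matches in all, and 22.6% of 32851 windows of all genes hold it. The share of all genes with a match was not computed, so the count of genes has no background here. CATGTG was found in 1 window, that of *Fcer1a*, and 12.3% of all windows hold it. *Gata2* and *Hdc* are shown because they carry the differences described below, and *Cpa3*, *Ms4a2*, *Fcer1a* and *Il1rl1* because they hold matches; capitals mark the matches, and each sequence runs 5′ to 3′ on the gene's strand up to the base before the start. *Gata2* is at chr6:88193641-88193890 (+ strand, first of its starts), *Hdc* at chr2:126618679-126618928 (- strand), *Cpa3* at chr3:20242182-20242431 (- strand), *Ms4a2* at chr19:11623720-11623969 (- strand), *Fcer1a* at chr1:173227230-173227479 (- strand) and *Il1rl1* at chr1:40429320-40429569 (+ strand, first of its starts). None of the 6 windows overlaps an exon of its gene in GENCODE.
Gata2: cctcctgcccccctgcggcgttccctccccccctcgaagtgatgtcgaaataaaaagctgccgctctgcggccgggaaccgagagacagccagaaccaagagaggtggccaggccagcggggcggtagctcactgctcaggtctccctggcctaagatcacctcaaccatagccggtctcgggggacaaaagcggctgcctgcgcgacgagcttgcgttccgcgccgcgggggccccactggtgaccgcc
Hdc: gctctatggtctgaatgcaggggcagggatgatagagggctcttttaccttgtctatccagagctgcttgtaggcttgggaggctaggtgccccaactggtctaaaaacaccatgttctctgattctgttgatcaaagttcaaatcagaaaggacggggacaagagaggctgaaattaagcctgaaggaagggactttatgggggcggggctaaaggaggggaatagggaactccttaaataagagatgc
Cpa3: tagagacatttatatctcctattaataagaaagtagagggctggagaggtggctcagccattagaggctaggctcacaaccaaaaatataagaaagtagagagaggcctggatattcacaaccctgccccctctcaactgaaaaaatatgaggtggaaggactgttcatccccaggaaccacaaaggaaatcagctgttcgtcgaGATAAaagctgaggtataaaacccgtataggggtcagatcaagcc
Ms4a2: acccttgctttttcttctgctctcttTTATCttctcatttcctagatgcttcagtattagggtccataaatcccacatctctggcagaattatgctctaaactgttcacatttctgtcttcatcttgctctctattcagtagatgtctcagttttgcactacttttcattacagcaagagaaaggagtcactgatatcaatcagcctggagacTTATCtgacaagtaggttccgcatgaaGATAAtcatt
Fcer1a: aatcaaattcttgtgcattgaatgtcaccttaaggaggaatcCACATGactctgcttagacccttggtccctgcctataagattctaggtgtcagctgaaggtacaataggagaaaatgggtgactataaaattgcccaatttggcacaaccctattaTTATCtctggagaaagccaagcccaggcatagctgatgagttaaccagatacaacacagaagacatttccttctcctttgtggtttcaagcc
Il1rl1: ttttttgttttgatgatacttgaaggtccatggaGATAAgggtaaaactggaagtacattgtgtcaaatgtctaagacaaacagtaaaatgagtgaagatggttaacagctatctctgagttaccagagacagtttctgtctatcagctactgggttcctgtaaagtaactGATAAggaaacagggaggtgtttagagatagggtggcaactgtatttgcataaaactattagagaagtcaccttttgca

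The match in *Cpa3* begins 45 bases before the start. *Ms4a2* holds 3 matches, which begin 224, 37 and 10 bases before its start, and *Il1rl1* holds matches at 216 and 79. *Fcer1a* holds TTATC from 92 and CACATG from 208 bases before its start. The windows shown of *Gata2* and *Hdc* hold neither GATAA nor CATGTG, which says only that these letters are not in these windows. GATA followed by another letter was not counted, and the *Hdc* window holds GATAG. A match is a description of the letters and was not measured as a binding site here.

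**Figure D1:**
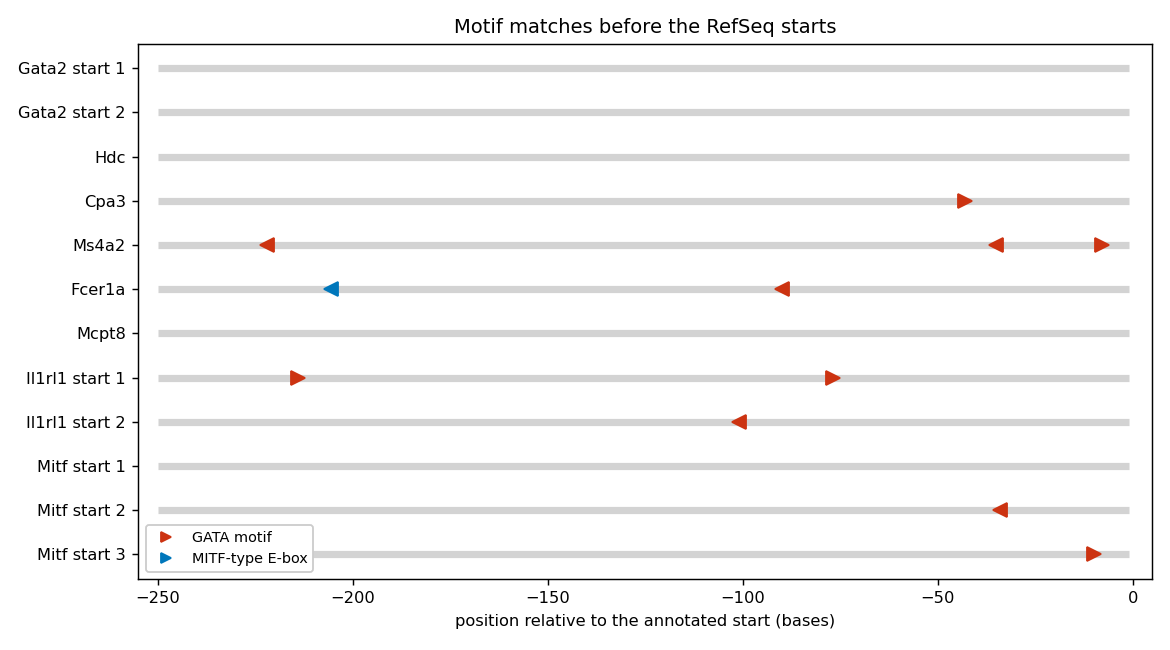
Positions of GATAA (red) and CATGTG (blue) in the 250 bases before each RefSeq start of the 8 genes; the x axis is the distance from the start in bases, grey lines are windows and the arrow direction is the strand of the match. *Ms4a2* holds 3 GATAA matches and *Fcer1a* is the gene with a CATGTG match.

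*Gata2* (chr6:88193891-88207032, + strand, GRCm38 with GENCODE M21) was near 0 in the WT cells and clearly present in all 6 floxed libraries. The WT-GFP libraries read 0.124, 0.128 and 0.0996 FPKM, and those of WT-Cre were listed at 0, 0.0888 and 0. The Hoxa-flox libraries read 7.79, 7.64 and 13.7 FPKM and those of Hoxa-del 9.35, 8.96 and 13.2. Every floxed library lay above every WT library, and the mean of Hoxa-flox (9.71 ± 3.46, SD, n = 3) was 82.8 times that of WT-GFP (0.117 ± 0.0155, SD, n = 3). The WT values rest on about 5.56 to 6.60 fragments in each WT-GFP library and 0 to 1.25 in each WT-Cre library, against about 206 to 723 in the floxed libraries, so the fold carries a wide counting error. No fold is given against WT-Cre.

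On the scale of log2(FPKM + 1), which understates changes of low genes, *Gata2* was 3.21 higher in Hoxa-flox than in WT-GFP (SE 0.22, 95% interval 2.73 to 3.70, adjusted p = 1.39e-06, limma over 13169 genes). In Hoxa-del it was 3.46 higher than in WT-Cre (SE 0.22, 2.98 to 3.95, adjusted p = 7.78e-07, limma). The low set of floxed libraries read 7.64 to 8.96 FPKM and the high set 9.35 to 13.7, so the sets did not overlap, and even the lowest floxed library was far above the highest WT library. Both differences passed the test with any 1 library left out and under every other setting that kept more than 1 library a group. The low set alone leaves 1 Hoxa-del library and the high set alone 1 Hoxa-flox library. In those fits only the direction is given, and *Gata2* was higher in the floxed cells.

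**Figure D2:**
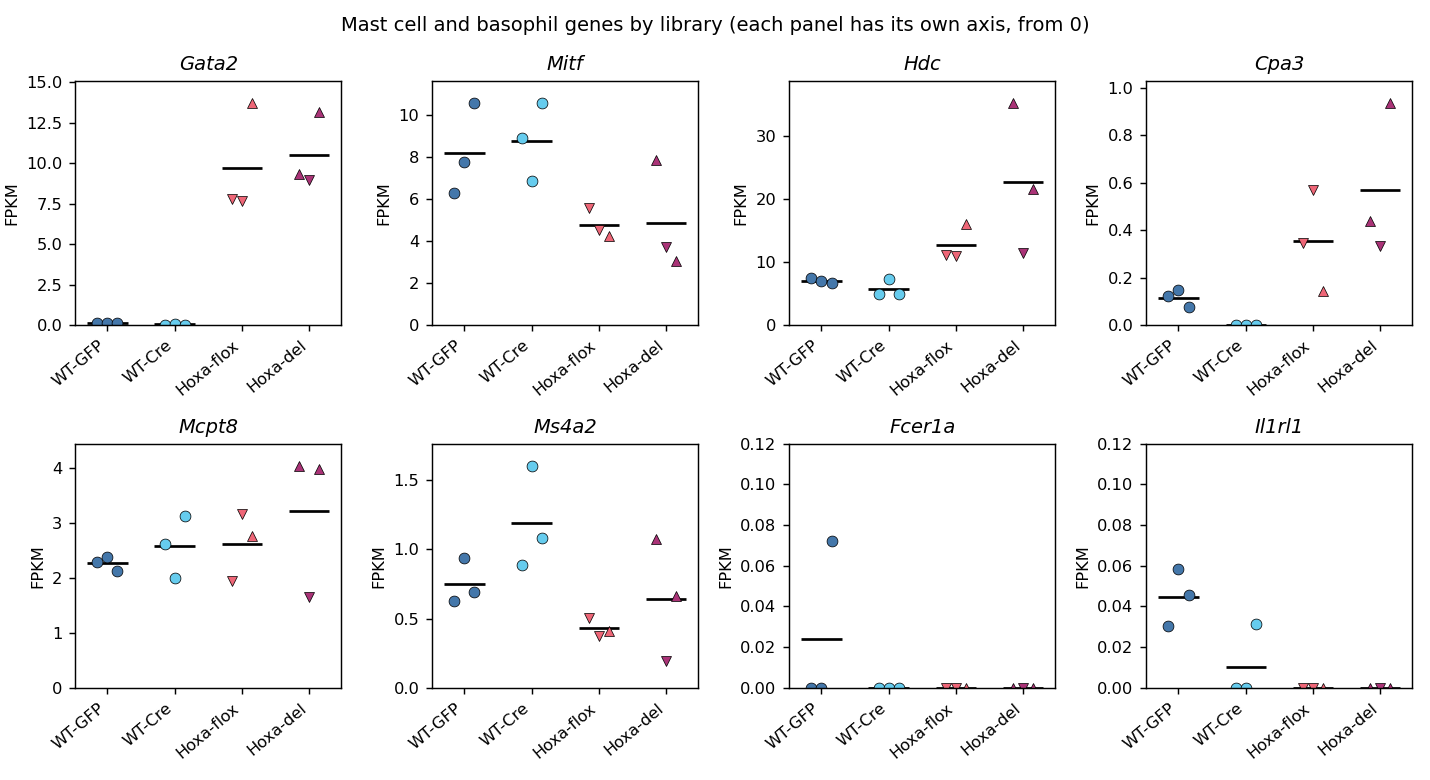
Level of each of the 8 genes in FPKM (y axis) in the 12 libraries by group (x axis); circles are WT libraries, down-pointing triangles floxed libraries with low *Mki67*, up-pointing triangles those with high *Mki67*, and black bars are group means. *Gata2* lies between 7.64 and 13.7 FPKM in the floxed cells and at or under 0.128 in the WT cells, while *Fcer1a* and *Il1rl1* stay near 0 in every group.

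*Mitf* (chr6:97807052-98021349, + strand) had lower values in 5 of the 6 floxed libraries than in any WT library and was not called. The WT-GFP libraries read 6.29, 7.75 and 10.6 FPKM and those of WT-Cre 8.89, 6.85 and 10.6. The Hoxa-flox libraries read 5.57, 4.51 and 4.23 FPKM and those of Hoxa-del 7.86, 3.74 and 3.04. Hoxa-flox lay below WT-GFP in every library, whereas Hoxa-del 1 (7.86 FPKM) lay within the range of WT-Cre. The difference was -0.65 on the log2 scale for Hoxa-flox against WT-GFP (SE 0.28, -1.28 to -0.03, adjusted p = 0.116, limma) and -0.80 for Hoxa-del against WT-Cre (SE 0.28, -1.43 to -0.17, adjusted p = 0.0587, limma). With array weights, which give noisy libraries less influence, the former passed (-0.85, adjusted p = 0.000742, limma). The fit of these weights stopped before it converged, which limits every result given here with array weights. Without Hoxa-del 1, whose value is the highest of the floxed libraries, both differences passed (adjusted p = 0.0389 and 0.00521, limma), the latter at -1.14. The former comparison holds no Hoxa-del library, so its difference stayed at -0.65. Only the spread shared by the fit and the adjustment over all genes changed there. With the low set alone, which holds 1 Hoxa-del library, the difference of Hoxa-del against WT-Cre was -1.03.

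*Mitf* has 3 rows under its symbol, and which transcripts each one holds is not given in the sources used here. In the second row the WT-GFP libraries read 0.898, 1.63 and 1.76 FPKM and those of WT-Cre 2.61, 2.17 and 2.30, against 0.317, 0.50025 and 0.590 for Hoxa-flox and 1.09, 0.512 and 0.887 for Hoxa-del. All floxed libraries except Hoxa-del 1 lay below every WT library in that row. The third row ran from 0.268 to 1.78 FPKM in the WT libraries and from 0 to 0.470 in the floxed ones.

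*Hdc* (chr2:126593667-126619299, - strand) encodes histidine decarboxylase, the enzyme that makes histamine, and it was higher in the floxed cells, past the threshold in 1 of the 2 comparisons of genotype. The WT-GFP libraries read 7.43, 7.07 and 6.64 FPKM and those of WT-Cre 4.88, 7.30 and 4.87. The Hoxa-flox libraries read 11.1, 10.9 and 16.0 FPKM and those of Hoxa-del 35.3, 11.4 and 21.6. All 6 floxed libraries lay above all 6 WT libraries. The mean of Hoxa-del (22.8 ± 11.95, SD, n = 3) was 4.002 times that of WT-Cre (5.69 ± 1.40, SD, n = 3), and the difference passed the test (1.72 on the log2 scale, SE 0.32, 1.01 to 2.42, adjusted p = 0.00242, limma). The mean of Hoxa-flox (12.7 ± 2.87, SD, n = 3) was 1.80 times that of WT-GFP (7.05 ± 0.391, SD, n = 3), and that difference did not pass (0.74, SE 0.32, 0.04 to 1.45, adjusted p = 0.112, limma).

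The call of *Hdc* in Hoxa-flox against WT-GFP depended on the fit. It passed with array weights (adjusted p = 0.000366, limma), with only the groups compared (adjusted p = 0.0224, limma), with the low set alone (0.0132), without Hoxa-del 1 (0.0431) and without Hoxa-del 2 (0.0225). Hoxa-flox against WT-GFP holds no Hoxa-del library. Leaving out Hoxa-del 1 or Hoxa-del 2 thus changed the spread shared by the fit and the adjustment, and not the difference. The high set holds 1 Hoxa-flox library, and with that set alone the difference was 1.08. The low set read 10.9 to 11.4 FPKM and the high set 16.0 to 35.3, with medians of 11.1 and 21.6, so the sets did not overlap. Both called members therefore read higher in the high set, and 23.1% of all tested genes did so without overlap.

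**Figure D3:**
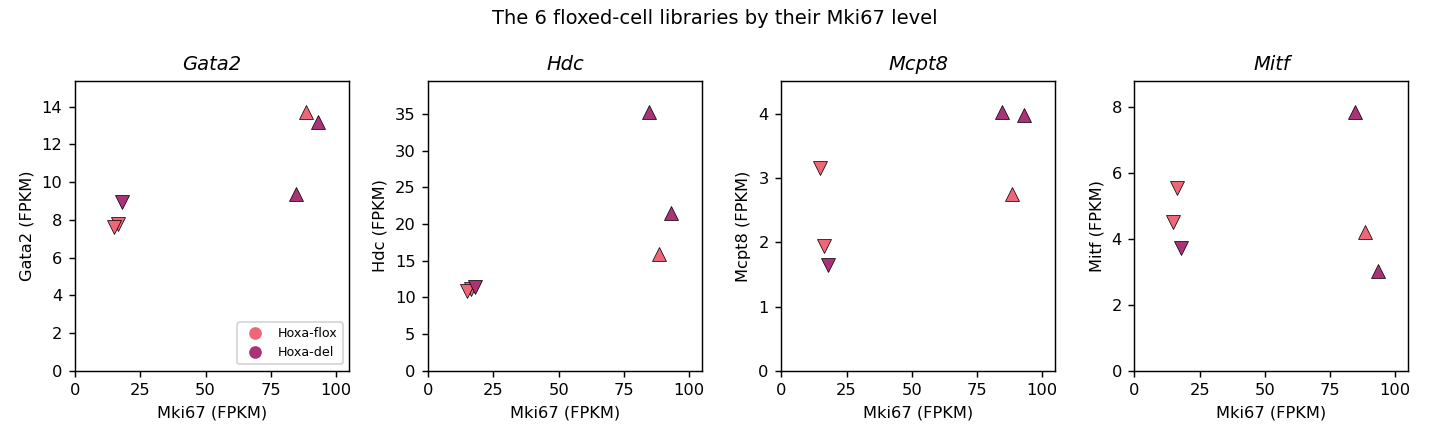
Level in FPKM of *Gata2*, *Hdc*, *Mcpt8* and *Mitf* (y axes) against the level of *Mki67* in FPKM (x axes) in the 6 floxed libraries; colours are Hoxa-flox and Hoxa-del, down-pointing triangles the low *Mki67* set and up-pointing triangles the high set. For *Gata2* and *Hdc* the sets do not overlap, with medians of 7.79 and 13.2 FPKM for *Gata2* and of 11.1 and 21.6 for *Hdc*.

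*Cpa3* (chr3:20215620-20242181, - strand) encodes carboxypeptidase A3, a protease stored in mast cell granules. The WT-GFP libraries read 0.121, 0.147 and 0.0758 FPKM, and all 3 WT-Cre libraries were listed at 0. The Hoxa-flox libraries read 0.344, 0.570 and 0.143 FPKM and those of Hoxa-del 0.436, 0.335 and 0.935. Hoxa-del lay above WT-Cre in every library, and Hoxa-flox 3 (0.143) lay within the range of WT-GFP. The highest library, Hoxa-del 3, rests on about 20.7 fragments, Hoxa-del 1 and Hoxa-del 2 on about 4.85 and 3.115, and the WT-GFP libraries on about 2.04 to 3.06. In WT-Cre 2, 1 fragment of *Cpa3* would read about 0.175 FPKM.

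In a fit without the filter on low values (25263 symbols), *Cpa3* passed in Hoxa-del against WT-Cre (0.63, SE 0.14, adjusted p = 0.0122, limma). It did not pass in Hoxa-flox against WT-GFP (0.27, SE 0.14, adjusted p = 0.257, limma). No fold is given, since the WT-Cre libraries are listed at 0. *Cpa3* stayed under 1 FPKM in every library, below every *Gata2* and *Hdc* reading of the floxed cells per length.

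*Mcpt8* (chr14:56082166-56085273, - strand) encodes mast cell protease 8, a basophil protease in mouse. Readings were 2.28, 2.38 and 2.11 FPKM for WT-GFP, 2.61, 1.99 and 3.13 for WT-Cre, 1.95, 3.15 and 2.75 for Hoxa-flox, and for Hoxa-del 4.03, 1.64 and 3.98. The groups overlapped in both comparisons of genotype. The differences were 0.14 (-0.42 to 0.69, adjusted p = 0.738, limma) for Hoxa-flox against WT-GFP and 0.19 (-0.37 to 0.75, adjusted p = 0.627, limma) for Hoxa-del against WT-Cre. The gene has close paralogs nearby, and whether the authors' counting split reads among them was not tested. With the high set alone the second difference passed (0.50, adjusted p = 0.0339, limma), and with the low set alone it was -0.42.

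*Ms4a2* (chr19:11615523-11623719, - strand), the β chain of FcεRI, was low in all groups. Its level was 0.623, 0.938 and 0.693 FPKM in the WT-GFP libraries, 0.887, 1.60 and 1.08 in those of WT-Cre, 0.505, 0.372 and 0.407 in those of Hoxa-flox, and in Hoxa-del 1.07, 0.195 and 0.662. Hoxa-flox lay below WT-GFP in every library, and Hoxa-del overlapped WT-Cre. In the fit without the filter the differences were -0.29 (adjusted p = 0.392, limma) and -0.44 (adjusted p = 0.174, limma), and neither passed. The levels rest on about 2.998 to 32.3 fragments a library.

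*Fcer1a* (chr1:173221284-173227214, - strand), the α chain that binds IgE, was listed at 0 in 11 of the 12 libraries. The other library was WT-GFP 3, with 0.0723 FPKM, which is about 1.34 fragments. *Il1rl1* (chr1:40429570-40465415, + strand) encodes ST2, the receptor of the alarmin IL-33. The WT-GFP libraries read 0.0302, 0.0582 and 0.0458 FPKM, those of WT-Cre were listed at 0, 0 and 0.0312, and all 6 floxed libraries were listed at 0. The reading of *Il1rl1* rests on at most 4.51 fragments a library, and the difference of -0.06 for Hoxa-flox against WT-GFP did not pass (adjusted p = 0.0778, limma without the filter).

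The order of the levels per length differed between WT-GFP and both groups of floxed cells. In WT-GFP, *Mitf* (8.20 ± 2.18 FPKM, SD, n = 3) and *Hdc* (7.05) stood first and overlapped, followed by *Mcpt8* (2.26 ± 0.133) and *Ms4a2* (0.751 ± 0.165), and then by *Gata2* (0.117) and *Cpa3* (0.114 ± 0.0358), which overlapped. In Hoxa-del, *Hdc* (22.8) and *Gata2* (10.5 ± 2.32) stood first and overlapped, then *Mitf* (4.88 ± 2.60) and *Mcpt8* (3.22 ± 1.36), which overlapped, and then *Ms4a2* (0.643 ± 0.439) and *Cpa3* (0.569 ± 0.321), which overlapped. Hoxa-del differs from WT-GFP in genotype and virus. Hoxa-flox, which shares the control virus with WT-GFP, had the same order of means as Hoxa-del. Its means were 12.7 FPKM for *Hdc*, 9.71 for *Gata2*, 4.77 for *Mitf*, 2.62 for *Mcpt8*, 0.428 for *Ms4a2* and 0.352 for *Cpa3*. *Gata2* stood behind *Mcpt8* and *Ms4a2* in WT-GFP and ahead of *Mitf* in Hoxa-flox and Hoxa-del. In these bulk libraries fewer cells of a type and less RNA per cell cannot be told apart.

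Over the 8 members, 1 passed in Hoxa-flox against WT-GFP (*Gata2*) and 3 in Hoxa-del against WT-Cre (*Gata2*, *Hdc* and *Cpa3*) in the fit without the filter, all of them higher. Of all 25263 symbols, 15.5% and 16.7% were called in these comparisons, 7.63% and 7.59% as higher. With the filter, 1 of 4 tested members (*Gata2*) and 2 of 4 (*Gata2* and *Hdc*) were called, against 26.8% and 27.2% of 13169 genes. Groups that did not overlap were found for 5 of 8 members in Hoxa-flox against WT-GFP, with *Gata2* and *Hdc* higher and *Mitf*, *Ms4a2* and *Il1rl1* lower, and 34.5% of all symbols had such groups. In Hoxa-del against WT-Cre they were found for 3 of 8, *Gata2*, *Hdc* and *Cpa3*, all higher, against 29.4% of all symbols.

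**Figure D4:**
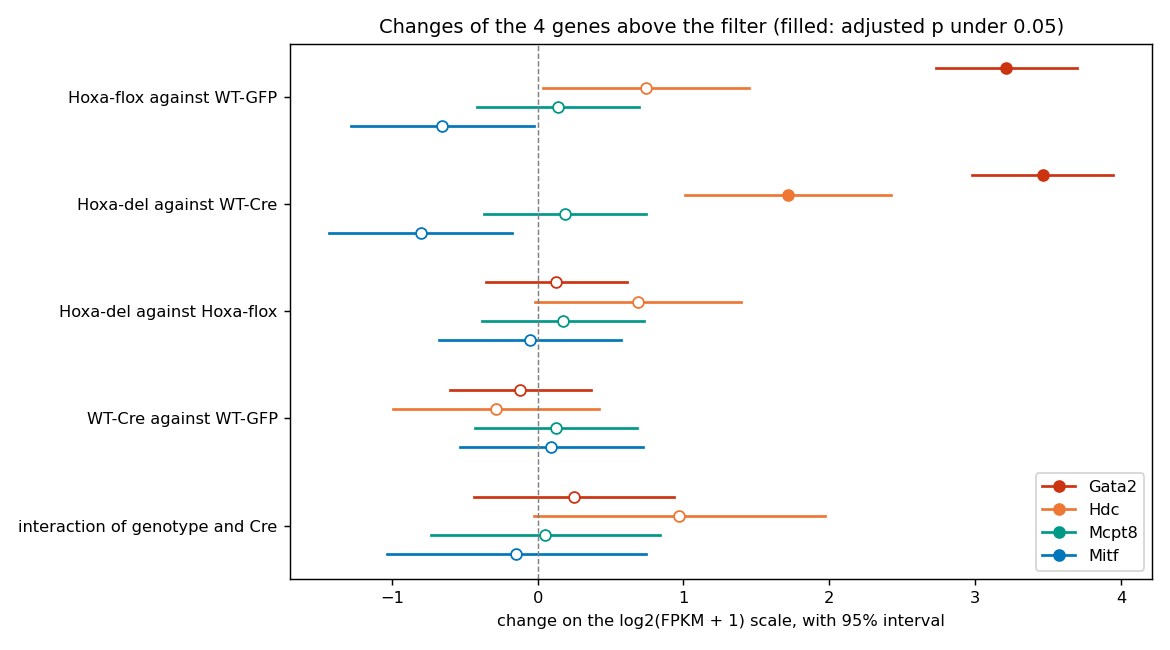
Difference on the log2(FPKM + 1) scale (x axis) of the tested members in the comparisons of genotype, of virus and of the interaction; points are estimates, bars 95% intervals from limma, and filled points passed an adjusted p of 0.05. *Gata2* passes in both comparisons of genotype (3.21 and 3.46) and *Hdc* in Hoxa-del against WT-Cre (1.72).

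No tested member passed between the Cre and the control virus in either genotype. In Hoxa-del against Hoxa-flox the differences were 0.13 for *Gata2* (-0.35 to 0.61), 0.69 for *Hdc* (-0.02 to 1.39), 0.18 for *Mcpt8* (-0.38 to 0.73) and -0.05 for *Mitf* (-0.68 to 0.57). Of these 4 members, 0 passed over all genes and 0 had an unadjusted p under 0.05 (limma), the smallest being 0.0556 for *Hdc* (adjusted p = 0.729). Over all genes 0.0304% passed. With array weights, whose fit stopped before it converged, *Gata2* and *Hdc* passed. Without Hoxa-del 2 *Hdc* passed (1.09, adjusted p = 0.0446, limma). That fit sets Hoxa-del libraries of the high set alone against Hoxa-flox libraries of both sets. Virus and set cannot be told apart in it.

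Read within the sets, the *Hdc* value of Hoxa-del 2 (11.4 FPKM) lay next to those of Hoxa-flox 1 and Hoxa-flox 2 (11.1 and 10.9). In the high set Hoxa-del 1 and Hoxa-del 3 (35.3 and 21.6 FPKM) lay above Hoxa-flox 3 (16.0). With 1 or 2 libraries a side, the sets allow no more than these values. Hoxa-del 1 holds the highest *Hdc* reading of the 12 libraries.

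In WT-Cre against WT-GFP, 0 of the 4 tested members passed and 0 had an unadjusted p under 0.05 (limma), while 0.0152% of all genes passed. *Gata2* differed by -0.12 (-0.60 to 0.37), *Hdc* by -0.29 (-0.99 to 0.42), *Mcpt8* by 0.12 (-0.43 to 0.68) and *Mitf* by 0.09 (-0.53 to 0.72). The WT-Cre readings of *Gata2* lay below those of WT-GFP in every library, at about 0 to 1.25 fragments a library, and 16.3% of all genes read lower without overlap in this comparison. The difference of the Cre changes between the genotypes was 0.25 for *Gata2* (-0.44 to 0.93), 0.97 for *Hdc* (-0.03 to 1.97), 0.05 for *Mcpt8* and -0.15 for *Mitf*. None of the 4 passed (adjusted p = 0.9997 for each, limma), 0 had an unadjusted p under 0.05 (0.0553 for *Hdc*), and 0.00759% of all genes passed.

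Few markers of the 2 lineages were measured above the filter. For the lists that follow, 26.8% of all tested genes were called in Hoxa-flox against WT-GFP, with a median difference of 0.00060. Of 13 mast cell markers, 3 had a row, and *Cma1*, *Mcpt1*, *Mcpt2*, *Mcpt4*, *Mcpt9*, *Tpsb2*, *Tpsab1*, *Tpsg1*, *Mrgprb2* and *Tph1* were not analysed here. *Kit*, the SCF receptor of mast cells and of progenitors, was the 1 marker above the filter and was higher in Hoxa-flox (35.3 ± 3.20 FPKM, SD, n = 3) than in WT-GFP (5.25 ± 0.234), a difference of 2.54 (SE 0.15, adjusted p = 3.83e-07, limma). *Mrgprb1* was listed at 0 in 11 libraries and was below the filter. *Slc18a2*, the transporter that loads granules with amines, was also below the filter and had lower readings in the floxed cells, without overlap: 0.330 to 0.635 FPKM in WT-GFP against 0.0555 to 0.254 in Hoxa-flox, and 0.701 to 0.974 in WT-Cre against 0.287 to 0.418 in Hoxa-del. The summed level of the 3 markers ran from 5.32 to 5.97 FPKM (WT-GFP), 4.78 to 5.05 (WT-Cre), 32.2 to 38.4 (Hoxa-flox) and 24.9 to 36.6 (Hoxa-del), nearly all of it *Kit*.

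Of 7 basophil markers, 6 had a row and 1 was tested. *Prss34*, a basophil protease, was listed at 0 in 10 libraries, and *Cd200r3* stayed at or under 0.410 FPKM. *Il3ra*, the α chain of the IL-3 receptor, read 89.4, 94.4 and 108 FPKM in the low set and 27.9 to 28.2 in the high set, against 20.9 to 31.4 in the WT libraries, and did not pass over all libraries (1.17, adjusted p = 0.126, limma). Among 10 eosinophil markers 2 were tested, and *Siglecf* was lower in Hoxa-flox (2.56 ± 1.06 FPKM) than in WT-GFP (25.8 ± 0.686, difference -2.96, adjusted p = 1.01e-05, limma). *Prg2*, a granule protein of eosinophils, was not called (0.18, and 0.91 in Hoxa-del against WT-Cre, adjusted p = 0.779 and 0.111, limma). Its relative *Prg3*, below the filter, read 0 to 0.0880 FPKM in the WT libraries and 0.322 to 1.19 in the floxed ones. Other eosinophil markers below the filter differed in direction. *Ear1* read 0.459 to 0.808 FPKM in WT-GFP and 0 to 1.19 in WT-Cre, and *Epx* 0.0443 to 0.136 and 0 to 0.0471. Both were listed at 0 in every floxed library. *Ccr3* was listed at 0 in the WT libraries and read 0 to 0.0890 in the floxed ones, and *Ear6* overlapped.

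Genes that carry or restrain the signal of FcεRI were measured in all groups. *Fcer1g*, the γ chain that FcεRI shares with other Fc receptors of myeloid cells, read 152 to 359 FPKM over the 12 libraries. Of 20 tested genes of this pathway, 1 was higher and 7 were lower in Hoxa-flox than in WT-GFP, with a median of -0.37, and 1 was higher and 8 lower in Hoxa-del than in WT-Cre, with a median of -0.51. Since the list holds both kinds of gene, these counts and medians give no direction of signalling. The kinase gene *Btk* was higher (0.66). *Plcg1*, a phospholipase (-1.06), *Vav1*, a guanine nucleotide exchange factor (-0.60), and *Cbl*, a ubiquitin ligase (-0.88), were lower.

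Of 8 tested genes of IL-33 receptor signalling, a list that holds the co-receptor, an inhibitory receptor and the adaptors and kinases, 1 was higher and 1 was lower in Hoxa-flox than in WT-GFP. *Sigirr*, an inhibitor of IL-1 family receptors, was higher (3.02 ± 0.379 to 6.43 ± 1.85 FPKM, adjusted p = 0.0288, limma) and *Irak1*, a kinase of the pathway, was lower (89.6 ± 9.38 to 67.8 ± 10.6 FPKM, adjusted p = 0.0477, limma). The calls were lost in 7 and 11 of 21 other settings, respectively. Of 11 tested genes of granules and mediators, 1 was higher and 3 were lower in Hoxa-flox than in WT-GFP. *Alox5*, which starts leukotriene synthesis, fell from 45.5 ± 3.74 to 11.9 ± 3.95 FPKM (-1.90), *Hnmt*, which inactivates histamine, from 26.6 ± 1.57 to 8.62 ± 3.10 (-1.57) and *Ptgs1*, a cyclooxygenase, by 1.04 on the log2 scale. *Pla2g4a*, the phospholipase that releases arachidonic acid, was higher (0.81).

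Of 16 tested transcription factors of these lineages other than the members, 4 were higher and 5 were lower in Hoxa-flox than in WT-GFP, with a median of 0.14. *Erg*, a factor of stem and progenitor cells, rose from 14.6 ± 0.672 to 37.5 ± 1.70 FPKM (1.30). The relatives of *Mitf*, *Tfec* (-0.83), *Tfe3* (-1.10) and *Tfeb* (-0.73, adjusted p = 0.00888, limma), were lower, as was *Runx1* (-0.95). *Gata1*, which acts with and after *Gata2* in these lineages, was below the filter, at 0 to 0.0363 FPKM in the WT libraries and 0.249 to 1.05 in the floxed ones. Among 7 tested growth factor receptors, *Kit* was higher and *Csf2ra*, the α chain of the GM-CSF receptor, was lower (-1.25).

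**Figure D5:**
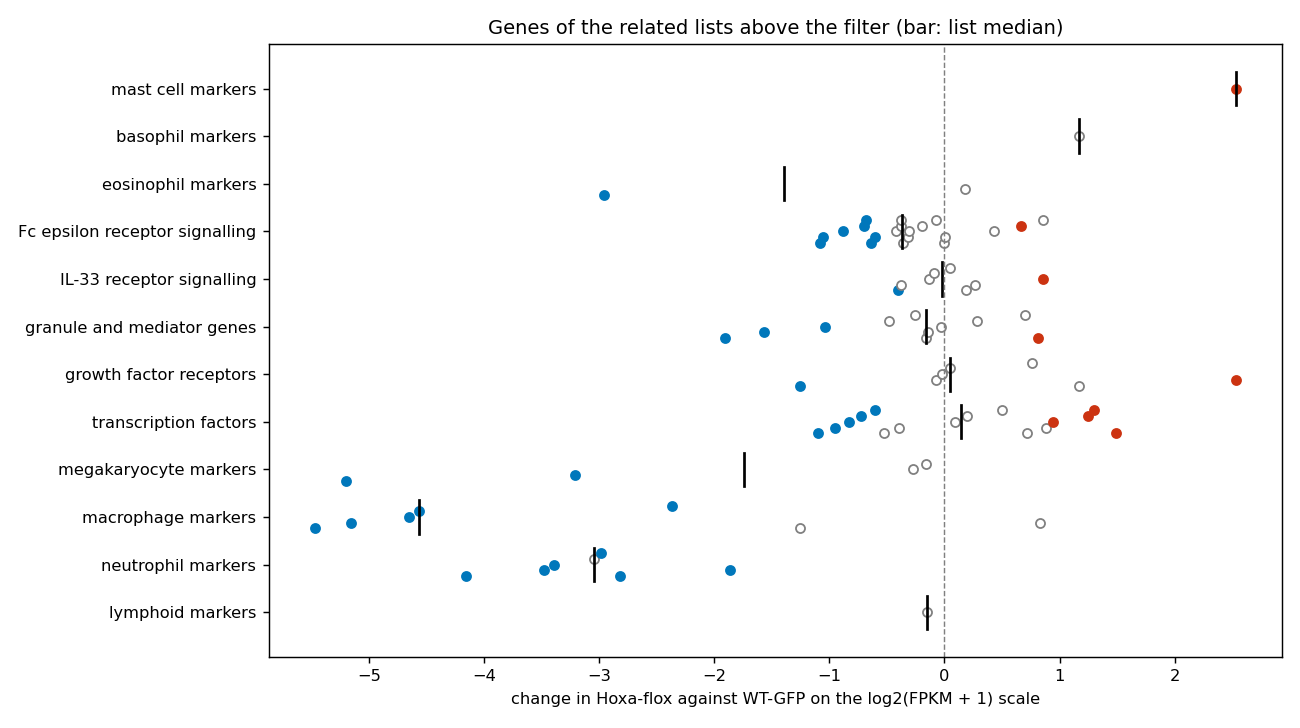
Difference between Hoxa-flox and WT-GFP on the log2(FPKM + 1) scale (x axis) of each tested gene of the lists (y axis); red points were called higher, blue points lower and open grey points were not called, and bars mark list medians. The median is -0.37 for FcεRI signalling and 0.14 for the transcription factors.

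Markers of other myeloid cells moved with the genotype too. Of 7 neutrophil markers, 6 were lower in Hoxa-flox than in WT-GFP (median -3.05), among them the granule genes *Mmp8* (-3.48), *Camp* (-4.15) and *Ltf* (-2.98) and the secreted factor *Retnlg* (-1.87), and their summed level ran from 5906 to 6154 FPKM (WT-GFP), 5596 to 5915 (WT-Cre), 129.8 to 1643 (Hoxa-flox) and 187 to 1605 (Hoxa-del). Of 7 macrophage markers, 5 were lower (median -4.57), among them the complement genes *C1qa* (-4.65), *C1qb* (-5.47) and *C1qc* (-5.16) and the scavenger receptor *Msr1* (-4.57), with sums of 209.7 to 236 FPKM (WT-GFP), 240.3 to 250.1 (WT-Cre), 47.7 to 128.5 (Hoxa-flox) and 38.1 to 126.6 (Hoxa-del). The macrophage marker *Adgre1* went the other way in Hoxa-flox (79.8 ± 32.0 FPKM against 41.5 ± 0.584 in WT-GFP), without overlap. It was not called (0.83, adjusted p = 0.159, limma), and it makes up most of the macrophage sums of the floxed cells. In Hoxa-del against WT-Cre *Adgre1* overlapped (-0.04). *Csf1r* read lower in Hoxa-flox and was not called (-1.25, adjusted p = 0.158, limma). The call of *Retnlg* was lost with a pseudocount of 0.1 (adjusted p = 0.0535, limma). *C1qc* was listed at 0 in all Hoxa-del libraries. Of 4 tested megakaryocyte markers, 2 were lower, *Pf4* (93.5 ± 7.75 to 1.69 ± 1.03 FPKM) and *Gp1bb* (60.6 ± 5.96 to 5.93 ± 2.24 FPKM). Erythroid markers were all under the filter, and the 1 tested lymphoid marker, *Cd79b*, did not pass (-0.15, adjusted p = 0.707, limma). The part of these shifts in the results of the members was not tested.

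Among 9071 genes with a mean of at least 5 FPKM, the genes with the profile most like that of *Gata2* over the 12 libraries were *Slc38a1* and *Fut8*, with a root-mean-square difference of centred log2 values of 0.178 and 0.216. *Slc38a1*, a glutamine transporter, read 3.11 ± 0.0863 FPKM with WT-GFP, 2.97 ± 0.0309 with WT-Cre, 40.1 ± 6.52 with Hoxa-flox and 35.6 ± 3.46 with Hoxa-del (SD, n = 3 each). *Fut8*, a fucosyltransferase, read 25.2 ± 0.652, 24.9 ± 0.716, 223 ± 51.1 and 202 ± 33.4 in the same order. Likeness was measured on log2(FPKM + 1), which understates the change of a gene as low as *Gata2* in the WT cells, and the ratio of the Hoxa-flox mean to the WT-GFP mean is smaller for both than for *Gata2*. Both were picked for this profile, so their levels are a description.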

How the data were processed

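Total RNA was sequenced from 12 libraries in 4 groups of 3, per the labels' protocols (stranded libraries depleted of ribosomal RNA). Per the submitters' processing notes, the builds were mm10 and GRCm38 and the tools included Cuffdiff 2.2.2.20150701, Cufflinks and STAR, with no role given. No source names the unit, and the deposited values were read as FPKM, the unit of Cufflinks. The table has 28042 rows and 25263 symbols.

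Genes with a mean of at least 1 FPKM (13169) entered limma-trend (limma 3.58.1 under R 4.3.3) on log2(FPKM + 1), in 1 fit with 4 group means, with Benjamini-Hochberg adjustment over all genes at 0.05. The script was checked on simulated data. The p-values reflect the spread among these libraries alone, which may be technical. Depth was estimated from the steps of low values (mean under 0.3 FPKM). At the depth ratio chosen for each library, 45.6% to 53.5% of compared values lay on ratios of small whole numbers (tolerance 0.02 in log2). Over all trial depth ratios, the median share on such ratios was 3.36% to 4.62%. With lengths of 804 genes, WT-GFP 1 came to 12.6 M fragments (interquartile range 12.1 to 12.9); depths cover counting error only.

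The members and the 13 gene lists were chosen with earlier results of these data known. From each list the text names up to 4 called genes with the smallest adjusted p in Hoxa-flox against WT-GFP, or else its 2 most highly expressed genes, and the 2 genes most like a member called in that comparison, which was *Gata2* alone. *Fcer1g*, *Tfeb*, *Prg2*, *Adgre1*, *Csf1r* and list genes below the filter were named after their values were seen. Alternatives were a pseudocount of 0.1, no filter, equal upper quartiles, array weights, only the groups compared, a replicate block, each library left out, each set of floxed libraries alone and all rows of repeated symbols. Coordinates are GENCODE M21, promoters RefSeq. Python 3.11.15, pandas 2.3.3, numpy 2.4.6 and matplotlib 3.10.9 were used.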

Additional observations from a re-analysis of the deposited data

How the results depend on the processing

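Over 21 alternatives *Gata2* stayed higher in both comparisons of genotype (2.96 to 5.44 and 3.28 to 6.40), as did *Hdc* in Hoxa-del against WT-Cre (0.92 to 2.12). The low set holds 1 Hoxa-del library and the high set 1 Hoxa-flox library, so calls of those groups with a set alone rest on 1 library. In the other alternatives these differences stayed past the threshold. With a library left out the highest adjusted p of *Hdc* in Hoxa-del against WT-Cre was 0.0129 (limma). For Hoxa-flox against WT-GFP the number of members called went from 1 to 2 with only the groups compared, 3 with array weights and 2 with the low set, and from 1 to 3 with a library left out (3 without Hoxa-del 1, 2 without Hoxa-del 2). For Hoxa-del against Hoxa-flox it went from 0 to 2 with array weights and from 0 to 1 with a library left out (1 without Hoxa-del 2), and for the interaction from 0 to 2 with array weights. Without Hoxa-del 2 the Hoxa-del libraries left are all of the high set. The array weights were the same for all comparisons, and their fit stopped before it converged. In Hoxa-flox against WT-GFP, fits without a Hoxa-del library keep the differences and change only the shared spread and the adjustment. The cause of the other changes was not tested. The number of members called was 2 to 3 in Hoxa-del against WT-Cre and 0 under all 19 alternatives in WT-Cre against WT-GFP.

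Some differences that were not called changed sign. *Mitf* in Hoxa-del against Hoxa-flox was 0.015 with equal upper quartiles, 0.017 with array weights, 0.20 with the high set and -0.39 to 0.17 with a library left out. *Mitf* in WT-Cre against WT-GFP was -0.025 with array weights and -0.061 to 0.27 with a library left out, and its interaction 0.041, 0.10 with the high set and -0.49 to 0.080. *Mcpt8* with the low set was -0.42 in Hoxa-del against WT-Cre, -0.40 in Hoxa-del against Hoxa-flox and -0.53 for the interaction, which was -0.11 to 0.36 with a library left out. *Gata2* with the high set was -0.28 in Hoxa-del against Hoxa-flox and -0.16 for the interaction, and the former was -0.031 to 0.38 with a library left out.

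Counts over all genes moved by more than 1.5 times: in Hoxa-flox against WT-GFP from 3525 to 9186 with array weights, 7430 with the low set and 5618 with the high set; in Hoxa-del against WT-Cre from 3580 to 7580 and 6021 with the sets; in Hoxa-del against Hoxa-flox from 4 to between 1 and 5173; in WT-Cre against WT-GFP from 2 to between 0 and 18; and for the interaction from 1 to between 1 and 3452. With the replicate number as a replicate block the members called stayed at 1, 2, 0, 0 and 0 and all genes called came to 3593, 3635, 3, 0 and 1. Libraries with the same number did not deviate together in every pair (correlations from -0.30 to 0.72), so the numbers are not taken as pairs. Depth limits *Fcer1a*, *Il1rl1*, *Cpa3* and the WT readings of *Gata2*, which rest on few fragments.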
